A study of Mus musculus with 32 samples.

Results

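The laminins, nidogens and perlecan of the basal lamina were described in 10 genes of the 24952 in the deposited tables, matched by name: the laminin α chains Lama2, Lama4 and Lama5, the β chains Lamb1 and Lamb2, the γ chains Lamc1 and Lamc3, the nidogens Nid1 and Nid2, and the perlecan gene Hspg2. RNA came from the tibialis anterior (TA), a limb muscle, of male wild type C57BL/6JRj mice, housed singly and fed the AIN93M diet. Regions around the neuromuscular junction (NMJ), marked by fluorescent α-bungarotoxin that binds acetylcholine receptors, and regions away from it (xNMJ) were cut from sections by laser, and each library held many such regions. There were 32 libraries, with 8 for each region at each age, named here by age in months and region (10m NMJ, for example). The older mice had been on the diet for longer, so that age and time on the diet cannot be told apart, and the labels do not say which libraries came from 1 animal. Library totals ranged from 4026648 to 16516788 counts. The xNMJ libraries were shallower, with median totals of 6062120 at 10 months and 6790010 at 30 months, against 9605870 and 9825360 for NMJ libraries.

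Laminins are cross-shaped trimers of an α, a β and a γ chain, which assemble into the sheet of the basal lamina around each muscle fiber. In muscle, the trimer with α2, β1 and γ1 is the known main laminin of the fiber surface, and its loss from mutations in the α2 gene causes a congenital muscular dystrophy. The lamina in the synaptic cleft is known for the β2 chain and for α4 and α5 beside α2, and mice without β2 form defective junctions. Nidogens bind the γ1 chain and link the laminin sheet to collagen IV, and perlecan is a heparan sulfate proteoglycan that binds laminin, dystroglycan and the collagen tail of acetylcholinesterase.

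The upstream sequences of 2 chains are shown because these genes, Lama2 and Lamb2, were the members with every NMJ library above every xNMJ library at both ages in CPM as well as in TPM. Over all tested genes, 2.22% were apart in this way in CPM at 10 months and 1.95% at 30 months. RefSeq gave a promoter for 6 of the 10 members (build GRCm38.p6), and the 250 bases before the annotated start were searched on both strands. The Lama2 stretch lies within the longer GENCODE span of the gene, and the Lamb2 stretch runs past the GENCODE start of the gene, so part of it lies in that gene's span. For Lama2 the stretch is chr10:27616943-27617192 on the minus strand, and for Lamb2 it is chr9:108479612-108479861 on the plus strand, both 5′ to 3′. Capitals mark CANNTG, the E-box that myogenic factors bind:
Lama2: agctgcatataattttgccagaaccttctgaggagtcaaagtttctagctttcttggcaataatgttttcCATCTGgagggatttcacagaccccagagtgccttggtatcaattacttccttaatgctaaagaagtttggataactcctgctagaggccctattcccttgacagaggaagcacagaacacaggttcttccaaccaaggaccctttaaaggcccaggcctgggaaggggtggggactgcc
Lamb2: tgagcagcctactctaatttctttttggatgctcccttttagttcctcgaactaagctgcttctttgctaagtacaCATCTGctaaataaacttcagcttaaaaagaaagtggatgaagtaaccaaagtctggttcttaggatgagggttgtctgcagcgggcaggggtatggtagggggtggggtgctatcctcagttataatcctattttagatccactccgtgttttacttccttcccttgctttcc
CCGGAA, the core of the N-box known from synaptic genes, was in neither stretch. It was found in 1 of the 6 members, Nid1, and in 12% of all 32851 promoters. No member held both motifs. CANNTG was in 4 of the 6 members (Lama2, Lama5, Lamb1 and Lamb2) and in 66.2% of all promoters. These are matches of letters only.

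Of the 10 members, 8 passed the filter of at least 1 CPM (counts scaled to the same library total) in at least 8 libraries and were tested among 13990 genes with the quasi-likelihood test of edgeR on the counts. Lamc3 and Hspg2 did not pass. At 10 months 4 of the 8 were called higher in NMJ regions, at an adjusted p under 0.05 over all genes (Lama2, Lamb2, Lamc1 and Nid2), and 0 were lower. The background was 6.50% of tested genes called higher and 5.05% called lower. At 30 months 4 of the 8 were called higher (Lama2, Lamb2, Lamc1 and Nid1) and 0 lower, against 5.0% and 4.25% of tested genes. The α2, β2 and γ1 chains were thus called at both ages. All 8 had a positive log2 fold change at both ages, with a median of 1.59 at 10 months and 1.33 at 30 months, beside 0.0034 and -0.014 over all tested genes. Scaling mattered for how many were called: the TMM factors that edgeR uses were lower in xNMJ libraries (medians 0.832 at 10m and 0.765 at 30m) than in NMJ libraries (1.21 and 1.25), and with library totals in their place the median of all genes moved to 0.56 and 0.61. With totals 6 members were called at 10 months and 7 at 30 months. Of all tested genes 2659 and 2687 were then called higher in NMJ regions and 210 and 76 lower. TMM gave 909 and 700 higher and 706 and 595 lower. With totals 92.7% and 97.2% of all called genes were higher in NMJ regions, where TMM gave 56.3% and 54.1%. With limma-trend on log2(TPM + 1) these shares were 91.9% and 98.3%, with a median of all genes of 0.37 and 0.49, and with limma-trend on log2 CPM they were 64.4% and 66.0%, with medians of 0.14 and 0.18. Lama2, Lamb2 and Lamc1 were called under each of these scalings. Levels in TPM (the authors' transcript abundance, which is scaled for transcript length) carry no TMM factor, while the fold changes are on TMM-scaled counts. The lengths behind TPM also differed between regions for members such as Lama2 (below). The regions lie further apart in TPM than in the fold changes, and the part of each in this was not tested. In these captured regions, fewer cells of a type and less RNA per cell cannot be told apart.

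**Figure D1:**
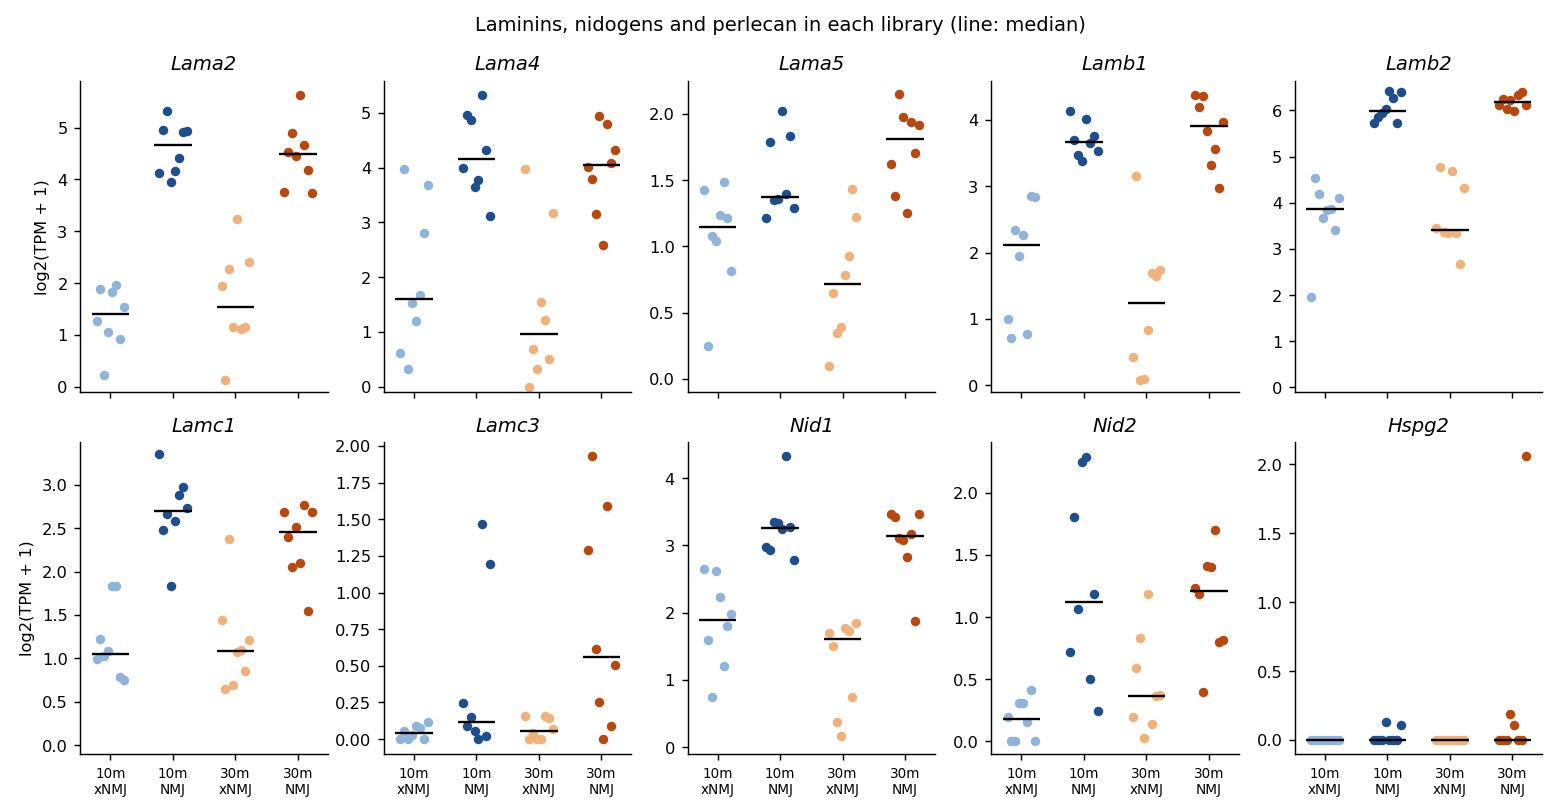
Level of each of the 10 members on the log2(TPM + 1) scale in the 32 libraries, one point per library, with a line at the median of each group of 8. Lama2, Lamb2 and Nid1 have no overlap between NMJ and xNMJ libraries of the same age, and Lamb1 has none at 10 months. In CPM only Lama2 and Lamb2 have none, and the share of all genes apart in TPM was not counted. Hspg2 is at 0 in all xNMJ libraries, and each panel has its own vertical scale.

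Lama2 (ENSMUSG00000019899, GRCm38 chromosome 10 from 26980036 to 27619758) encodes the α2 chain, the laminin α chain of the fiber surface. Its level was between 0.164 and 2.88 TPM in 10m xNMJ libraries (median 1.66) and between 14.5 and 39.1 TPM in 10m NMJ libraries (median 24.9). At 30 months it was between 0.0995 and 8.43 TPM in xNMJ (median 2.03) and between 12.4 and 48.6 TPM in NMJ (median 21.4). The NMJ libraries were above all xNMJ libraries at both ages, in TPM and in CPM (here and below scaled by the TMM factors as well). In CPM such a separation was seen for 2.22% of tested genes at 10 months and 1.95% at 30 months. The log2 fold change was 3.20 ± 0.45 (SE) at 10 months (edgeR adjusted p = 4.06e-06) and 2.19 ± 0.43 at 30 months (edgeR adjusted p = 0.000647). The highest 30m xNMJ library in Lama2 was replicate 5, at 8.43 TPM, where the other 7 reached at most 4.27 TPM.

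That library stood apart from its group. The summed TPM of 6 genes of subsynaptic nuclei (Chrne, Chrnd, Musk, Etv5, Colq and Ache) was 123 in replicate 5 and at most 10.4 in the other 7, and Chrne, the ε subunit of the acetylcholine receptor, was at 78.5 TPM there and at most 0.384 TPM in the others. In TPM it was the highest of its group for 2 of the 10 members, Lama2 and Nid2, and in CPM for Nid1 as well (16.3 CPM). Lamb2 was at 24.9 TPM there, where the other 7 had a median of 9.30 TPM and reached 26.4 TPM. Replicate 5 also had the highest summed TPM of the 10 members, 41.6 against at most 39.2 in the other 7. Without it the log2 fold change of Lama2 at 30 months was 2.45 (edgeR adjusted p = 0.000201), that of Lamb2 was 1.72 (adjusted p = 0.000129), that of Lamc1 was 1.24 (adjusted p = 0.0105) and that of Nid1 was 1.60 (adjusted p = 0.0151). Nid2 had a log2 fold change of 1.43 without it (edgeR adjusted p = 0.270) and 0.86 with it (adjusted p = 0.570).

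Lama4 (ENSMUSG00000019846, chromosome 10 from 38965515 to 39110188) encodes the α4 chain, which is found in vessels and in the synaptic cleft. It was between 0.252 and 14.7 TPM in 10m xNMJ (median 2.04) and between 7.63 and 39.1 TPM in 10m NMJ (median 16.9). At 30 months the values were 0 to 14.8 TPM in xNMJ (median 0.969) and 4.97 to 29.9 TPM in NMJ (median 15.6). At each age 2 xNMJ libraries lay above the lowest NMJ library, so the groups overlapped. Lama4 had a log2 fold change of 1.64 ± 0.67 (SE) at 10 months (edgeR adjusted p = 0.117) and 1.12 ± 0.66 at 30 months (adjusted p = 0.352). Its call depended on the fit. At 10 months Lama4 was called by DESeq2 (adjusted p = 0.0473), by edgeR with only the compared groups (adjusted p = 0.0359), and with library totals and both limma-trend fits. At 30 months it was called by edgeR with library totals (1.82, adjusted p = 0.0486), by both limma-trend fits, and by edgeR without 30m xNMJ replicate 1 (2.33, adjusted p = 0.0126), but not by DESeq2 (adjusted p = 0.254).

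Lama5 (ENSMUSG00000015647, chromosome 2 from 180176373 to 180225859) encodes the α5 chain, a broadly expressed chain that is also known from the synaptic cleft. It was the lowest of the 3 α chains in NMJ regions, at 1.31 to 3.07 TPM at 10 months (median 1.59) and 1.38 to 3.44 TPM at 30 months (median 2.51). In xNMJ libraries it was between 0.187 and 1.81 TPM at 10 months (median 1.22) and between 0.0703 and 1.69 TPM at 30 months (median 0.646). The groups overlapped at both ages. For Lama5 the log2 fold change was 0.31 ± 0.38 (SE) at 10 months (edgeR adjusted p = 0.689) and 1.18 ± 0.39 at 30 months, just short of a call (adjusted p = 0.0507). Leaving out 1 of 5 libraries (10m xNMJ replicate 2, 30m xNMJ replicates 7 and 8, 30m NMJ replicates 2 and 5) gave a call at 30 months, with log2 fold changes between 1.18 and 1.43, as did DESeq2 with all libraries (1.17, adjusted p = 0.0171), library totals and both limma-trend fits.

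Lamb2 (ENSMUSG00000052911, chromosome 9 from 108479736 to 108490530), which encodes the synaptic β2 chain, was the most abundant member by median in every group. It was between 2.91 and 22.1 TPM in 10m xNMJ (median 13.5) and between 52.1 and 85.0 TPM in 10m NMJ (median 62.5). The 30-month libraries were between 5.40 and 26.4 TPM in xNMJ (median 9.64) and between 62.7 and 83.8 TPM in NMJ (median 71.5). No NMJ library overlapped with an xNMJ library of its age, in TPM or in CPM. Such a separation in CPM was seen for 2.22% of tested genes at 10 months and 1.95% at 30 months. The share in TPM was not counted. The log2 fold change was 1.95 ± 0.30 (SE) at 10 months (edgeR adjusted p = 1.78e-05) and 1.55 ± 0.29 at 30 months (adjusted p = 0.000467). The spread within 30m NMJ was small, at 72.2 ± 7.40 TPM (SD, n = 8).

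Lamb1 (ENSMUSG00000002900, chromosome 12 from 31265234 to 31329644) encodes the β1 chain of the extrasynaptic fiber surface, of vessels and of nerve. Its level was 0.645 to 6.24 TPM in 10m xNMJ (median 3.34) and 9.37 to 16.6 TPM in 10m NMJ (median 11.7), with no overlap in TPM. How many of all genes separate so in TPM was not counted. At 30 months it was 0.0625 to 7.93 TPM in xNMJ (median 1.45) and 6.85 to 19.8 TPM in NMJ (median 13.9). In CPM scaled by the TMM factors the groups overlapped at both ages, with xNMJ libraries reaching 38.6 CPM at 10 months and 52.3 CPM at 30 months. NMJ against xNMJ gave a log2 fold change of 1.14 ± 0.65 (SE) at 10 months (edgeR adjusted p = 0.303) and 1.67 ± 0.66 at 30 months (adjusted p = 0.115), so Lamb1 was not called. Without 30m xNMJ replicate 2, which held the 52.3 CPM, the value at 30 months was 3.20 (edgeR adjusted p = 0.000390). With all libraries Lamb1 was called at 30 months by edgeR with library totals (2.33, adjusted p = 0.0130) and by limma-trend on log2 CPM (3.15, adjusted p = 0.000808), and at both ages by limma-trend on log2(TPM + 1).

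Lamc1 (ENSMUSG00000026478, chromosome 1 from 153218922 to 153332786) encodes the γ1 chain, the partner in most laminins and the chain that nidogens bind. It was between 0.686 and 2.57 TPM in 10m xNMJ (median 1.07) and between 2.55 and 9.23 TPM in 10m NMJ (median 5.49). At 30 months the range was 0.567 to 4.18 TPM in xNMJ (median 1.12) and 1.92 to 5.78 TPM in NMJ (median 4.49). In TPM the ranges overlapped, by 2 xNMJ libraries at 10 months and by 1 at 30 months. Lamc1 was called at both ages, with a log2 fold change of 1.54 ± 0.31 (SE) at 10 months (edgeR adjusted p = 0.000799) and 1.24 ± 0.31 at 30 months (adjusted p = 0.00676).

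Lamc3 (ENSMUSG00000026840, chromosome 2 from 31887291 to 31946539) encodes the γ3 chain, a rarer γ chain. It had at most 3 counts in each of the 16 xNMJ libraries. In 10m NMJ the counts of the 8 libraries were 7, 2, 4, 3, 0, 69, 1 and 115 in the order of their replicate numbers. In 30m NMJ they were 52, 98, 21, 9, 0, 102, 3 and 11, so that NMJ libraries ranged from 0 to over 100 counts. A two-sided exact permutation test on log2(TPM + 1), added after the counts were seen, gave a difference of 0.36 at 10 months (exact p = 0.054, n = 8 against 8) and 0.71 at 30 months (exact p = 0.0064). Adjusted over the 8 such tests made, these exact p values were 0.22 and 0.051, over the threshold. With no filter, edgeR gave an adjusted p of 0.0855 at 10 months and 0.0488 at 30 months over 24167 genes. Lamc3 was above 3 counts in 4 of 8 10m NMJ libraries and in 6 of 8 30m NMJ libraries, and its share of the γ chain TPM was between 0 and 39.6% in 30m NMJ (median 10.8%).

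Nid1 (ENSMUSG00000005397, chromosome 13 from 13437551 to 13512269), which encodes nidogen-1, the main nidogen of muscle, was between 0.668 and 5.30 TPM in 10m xNMJ (median 2.71) and between 5.90 and 19.1 TPM in 10m NMJ (median 8.58). At 30 months it was between 0.124 and 2.58 TPM in xNMJ (median 2.04) and between 2.65 and 10.1 TPM in NMJ (median 7.80). In TPM the groups of the same age did not overlap, while in CPM they did. The share of all genes with such a separation in TPM was not counted. The log2 fold change was 1.12 ± 0.42 (SE) at 10 months (edgeR adjusted p = 0.0856, not called) and 1.41 ± 0.43 at 30 months (adjusted p = 0.0293). The call at 30 months was lost without any 1 of 4 libraries (30m xNMJ replicates 3 and 7, 30m NMJ replicates 1 and 2), where the adjusted p was between 0.0512 and 0.0635, and with only the 2 compared groups in the fit (1.41, edgeR adjusted p = 0.0759). A call at 10 months was gained without 10m xNMJ replicate 1 (adjusted p = 0.0426) or 30m xNMJ replicate 4 (adjusted p = 0.0462), and with all libraries by DESeq2 (adjusted p = 0.0340), by edgeR with only the compared groups (adjusted p = 0.0434) or library totals (adjusted p = 0.00624), and by limma-trend on log2(TPM + 1) (adjusted p = 0.00127).

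Nid2 (ENSMUSG00000021806, chromosome 14 from 19751265 to 19811787) encodes nidogen-2, which is known to be enriched in the synaptic basal lamina. Its counts in 10m xNMJ were 0 in 3 libraries and at most 14 in the others, and in 10m NMJ they were between 14 and 232. In TPM this was 0 to 0.335 in 10m xNMJ (median 0.131) and 0.186 to 3.90 in 10m NMJ (median 1.18), with some overlap. The 30-month values were 0.0194 to 1.27 TPM in xNMJ (median 0.291) and 0.320 to 2.24 TPM in NMJ (median 1.31). The log2 fold change was 3.13 ± 0.81 (SE) at 10 months (edgeR adjusted p = 0.00779) and 0.86 ± 0.74 at 30 months (adjusted p = 0.570). The difference between these was -2.27 ± 1.07 (SE), which did not pass the test of the interaction of age and region (edgeR adjusted p = 0.959), so a difference between the ages is not shown. With the average insert size of the library as a covariate the value at 10 months was 2.10 and was no longer called (adjusted p = 0.0805). The insert size moved with region, with medians of 93.5 nt in 10m xNMJ and 117.5 nt in 10m NMJ.

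Hspg2 (ENSMUSG00000028763, chromosome 4 from 137468769 to 137570630) encodes perlecan. It was listed at 0 in all 16 xNMJ libraries and in 6 of 8 10m NMJ and 5 of 8 30m NMJ libraries. The 5 libraries with counts had 1, 1, 1, 1 and 13, the last in 30m NMJ replicate 8. The 2 protein-coding transcripts of Hspg2 in GENCODE M21 have a support level of 5, while the authors describe assigning reads only to transcripts of levels 1 to 3, in an older annotation. The counts and TPM of the 5 libraries imply a transcript of 0.82 kb (median), where the longest in GENCODE M21 has 14.2 kb. The listed zeros cannot be read as absence of perlecan RNA. The 3 protein-coding transcripts of Lama2 in GENCODE M21 are also of level 5, yet Lama2 had counts in all 32 libraries.

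**Figure D2:**
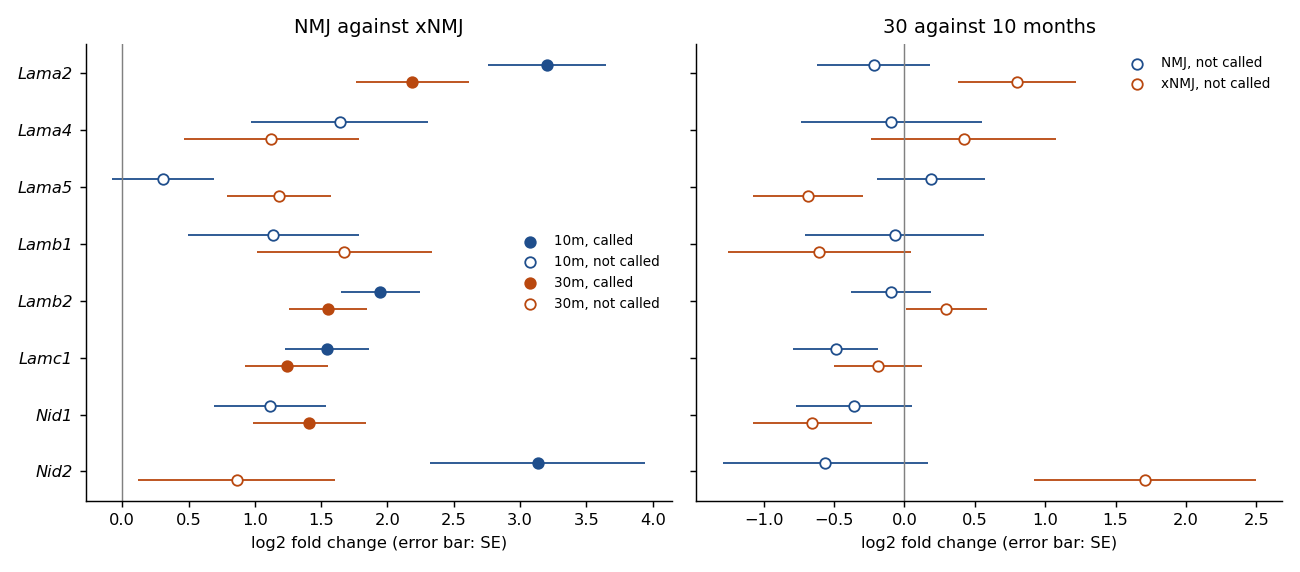
Log2 fold change of the 8 tested members with its standard error (horizontal bars), NMJ against xNMJ at each age on the left and 30 against 10 months in each region on the right, with filled points for an adjusted p under 0.05. On the left all points lie above 0 and Lama2, Lamb2 and Lamc1 are filled at both ages; on the right no point is filled.

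No member differed with age past the threshold. In NMJ regions 0 of 8 were called for 30 against 10 months by edgeR, where 0% of all tested genes were called (372 genes had an unadjusted p under 0.05, and DESeq2 called 1 gene). No member had an unadjusted p under 0.05, and DESeq2 also called 0 members. Their log2 fold changes lay between -0.56 (Nid2) and 0.19 (Lama5). The 95% interval for Lamb2 ran from -0.66 to 0.46 and that for Lama2 from -1.01 to 0.57; changes within these bounds were not resolved. In xNMJ regions 0 of 8 were called by edgeR and by DESeq2, where edgeR called 0.0429% of all tested genes and DESeq2 called 51 higher and 33 lower. Of the 8 members 1 had an unadjusted p under 0.05, as had 1321 of the 13990 genes in edgeR. The member was Nid2, with a log2 fold change of 1.71 ± 0.79 (SE, unadjusted p = 0.0368 and adjusted p = 0.484 in edgeR). Lama2 was at 0.80 ± 0.42 and Lama5 at -0.69 ± 0.39 (edgeR adjusted p = 0.574 and 0.607). The interaction of age and region was called for 0 of 8 members by edgeR and by DESeq2, where 0% of tested genes were called by edgeR (709 had an unadjusted p under 0.05, and DESeq2 called 2 higher and 7 lower). Nid2 was the 1 member with an unadjusted p under 0.05 (0.0413, adjusted p = 0.959 in edgeR).

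The chains also differed in how much of their kind they made up. Lamb2 held a median of 79.1% of the β chain TPM in xNMJ and 85.3% in NMJ regions at 10 months, and 92.9% and 83.6% at 30 months. Lama2 held a median of 21% of the TPM of the 3 α chains in 10m xNMJ and 52.2% in 10m NMJ, and 35.5% in 30m xNMJ and 46.9% in 30m NMJ. Lama5 went from a median of 26.3% in 10m xNMJ to 3.96% in 10m NMJ, and from 13.8% in 30m xNMJ to 5.94% in 30m NMJ. Lamc1 held a median of at least 89.2% of the γ chain TPM in each group. The order by median TPM in NMJ regions was Lamb2, Lama2, Lama4, Lamb1, Nid1, Lamc1, Lama5, Nid2, Lamc3 and Hspg2 at both ages. Only Lamb2 was clear of its neighbor there, above Lama2 in each of the 16 NMJ libraries without overlap of the ranges, while the ranges of all other neighbors overlapped and Lama2 exceeded Lama4 in 6 of 8 10m NMJ and 4 of 8 30m NMJ libraries. In xNMJ regions Lamb2 again had the highest median, above the gene of next median in 8 of 8 libraries of each age. Lamb2 was not first in every xNMJ library. In 10m xNMJ replicate 1 Nid1 was at 5.30 TPM and Lamb2 at 2.91 TPM. In 30m xNMJ replicate 1 Lama4 was at 14.8 TPM and Lamb2 at 9.97 TPM.

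The order below Lamb2 depended on how length was taken into account. From counts and TPM, the mean length behind a gene's TPM can be worked out, and Lama5 came out at 11.4 kb in every library with at least 20 counts, which is its longest protein-coding transcript in GENCODE M21. Lama4, in contrast, came out at 1.29 to 6.05 kb (median 2.28 kb, longest transcript 6.05 kb), Lama2 at 2.15 to 6.21 kb (median 4.65 kb, longest transcript 9.61 kb) and Lamb1 at 2.00 to 5.78 kb (median 3.85 kb, longest transcript 5.78 kb). The lengths differed between regions as well, with medians for Lama2 of 6.04 kb in 10m xNMJ and 3.99 kb in 10m NMJ, which raises TPM in NMJ regions relative to counts. With CPM per kb of the longest transcript in place of TPM, an alternative added after these lengths were seen, Lamb2 and Lama2 still held ranks 1 and 2 in NMJ regions at both ages. Lamb1 took rank 3 there, and Lama4 rank 5 at 10 months and rank 4 at 30 months. On that scale Lama5 held a larger share of the 3 α chains, with medians of 40.9% in 10m xNMJ and 10.8% in 10m NMJ, and of 22.6% in 30m xNMJ and 13.5% in 30m NMJ. This scale divides Lama2 by 9.61 kb and Lama4 by 6.05 kb, where the implied medians were 4.65 and 2.28 kb. It thus lowers their shares and raises that of Lama5.

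Paired chains were compared by their log2 ratio of (TPM + 1) within each library, over 4 ratios in 4 comparisons with a two-sided exact permutation test of 8 against 8 libraries and adjustment over the 16 tests. The ratio of Lamb2 to Lamb1, the synaptic to the extrasynaptic β chain, was 1.86 ± 1.09 (SD, n = 8) in 10m xNMJ and 2.35 ± 0.42 in 10m NMJ, a difference of 0.49 (exact permutation adjusted p = 0.44). The values at 30 months were 2.54 ± 0.999 in xNMJ and 2.37 ± 0.59 in NMJ (difference -0.17, exact permutation adjusted p = 0.83). These values moved with the scale: with a pseudocount of 0.1 TPM they were 0.15 and -1.17 (exact permutation adjusted p = 0.90 and 0.29), and in log2 CPM 0.25 and -1.37 (adjusted p = 0.85 and 0.19). No difference in this ratio passed the threshold on any of these scales, and its sign was not the same at both ages. The ratio of Lama4 to Lama2 was 0.64 ± 1.21 in 10m xNMJ and -0.35 ± 0.76 in 10m NMJ (difference -0.99, exact permutation adjusted p = 0.24), and -0.25 ± 1.24 and -0.52 ± 1.28 at 30 months (difference -0.28, adjusted p = 0.83).

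The ratio of Lama5 to Lama2 was lower in NMJ regions. It was -0.26 ± 0.76 (SD, n = 8) in 10m xNMJ and -3.07 ± 0.57 in 10m NMJ, with no overlap between the libraries, a difference of -2.80 (exact permutation p = 0.00016, the smallest that 8 against 8 can give; adjusted p = 0.0025). At 30 months it was -0.94 ± 1.09 in xNMJ and -2.74 ± 0.77 in NMJ, a difference of -1.80 (exact permutation adjusted p = 0.011), and the libraries overlapped. The 30-month difference was not past the threshold with a pseudocount of 0.1 TPM (-1.60, exact permutation adjusted p = 0.29) or in log2 CPM (-1.11, adjusted p = 0.35). The ratio of Nid2 to Nid1 differed by -0.34 at 10 months (exact permutation adjusted p = 0.61) and by -1.17 at 30 months, from -0.77 ± 0.74 in xNMJ to -1.93 ± 0.61 in NMJ (adjusted p = 0.022). Since Nid2 lay mostly under 1 TPM in xNMJ libraries, the pseudocount of 1 makes this ratio follow Nid1 more than Nid2 there. The Nid2 share of the nidogen TPM, which has no pseudocount, had medians of 17.6% in 30m xNMJ and 15% in 30m NMJ, and of 3.56% and 11.7% at 10 months. The 30-month ratio difference was lost with a pseudocount of 0.1 TPM (-0.99, adjusted p = 0.29), and at 10 months the sign turned with the same change (0.90, adjusted p = 0.29). Between the ages, 0 of the 8 differences passed, with adjusted p values from 0.07 to 0.94 in the exact permutation test. The lowest was that of Nid2 to Nid1 in xNMJ regions, with a difference of 0.91, which was 2.06 with a pseudocount of 0.1 TPM (exact permutation adjusted p = 0.044) and 2.24 in log2 CPM (adjusted p = 0.045).

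**Figure D3:**
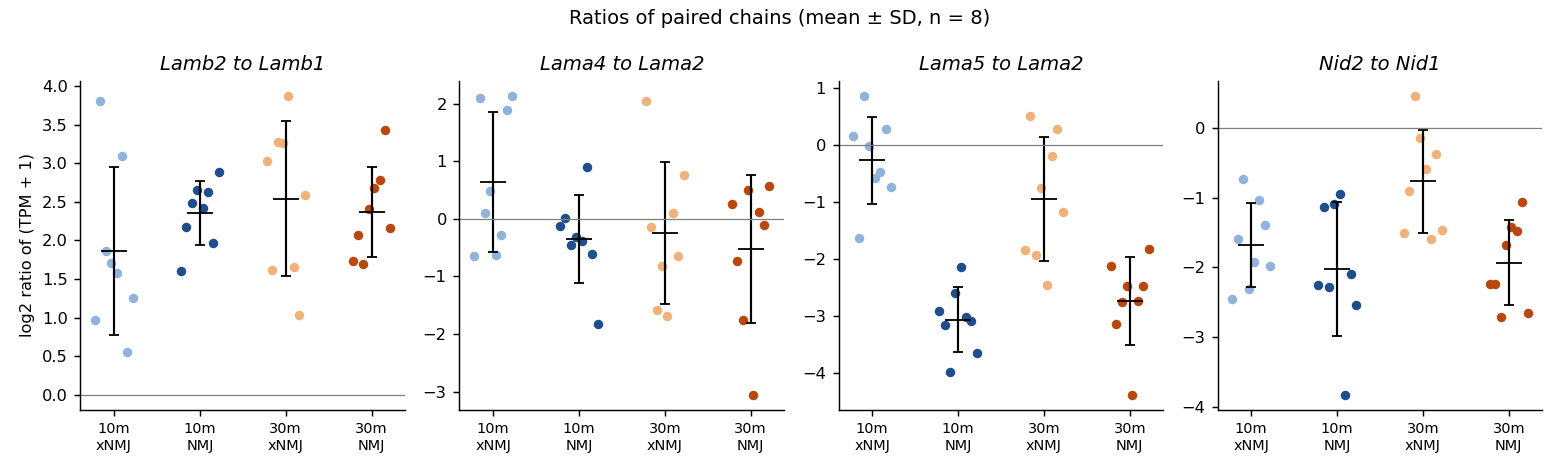
Log2 ratio of (TPM + 1) for the 4 pairs of chains in each library, with the mean and SD of each group of 8. In the panel of Lama5 to Lama2 all 10m NMJ libraries lie below all 10m xNMJ libraries, while in that of Lamb2 to Lamb1 the groups overlap at both ages.

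Likeness of pattern was taken as Pearson's r of log2 CPM over the 32 libraries. By this measure the tested gene of at least 5 CPM most like Lama2 was Serinc3 (r = 0.91), followed by Chrnb1 (r = 0.90), the β subunit of the acetylcholine receptor. Lamb2 was most like Kcnj12, a potassium channel gene (r = 0.91), and Epb41l4a (r = 0.90), and Lamc1 was most like Fgf6 (r = 0.82), a growth factor gene of muscle, and Ptn (r = 0.82). Lama4 was most like Azin1 (r = 0.84) and Ccl11 (r = 0.82), Lamb1 like Scd2 (r = 0.85) and Rbm39 (r = 0.77), and Lama5 like Plrg1 (r = 0.73) and Afap1l1 (r = 0.72). Nid1 came closest to Bche (r = 0.77) and Col1a2 (r = 0.76), a fibroblast collagen, and Nid2 to Gm48161 (r = 0.78) and Cxcl14 (r = 0.76). Among the members, Lama2 and Lamc1 were each other's nearest (r = 0.77), and Lamb2 was nearest to Lamb1 (r = 0.72). All 32 libraries of both regions enter these values, so that differences between the regions are part of them.

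Among laminin chains outside the 10 members, Lamb3, a chain of epithelial laminin, was tested and not called in any comparison, and Lama1 and Lama3 did not pass the filter. Lamb3 had a median of 1.18 TPM in 10m xNMJ and 0.975 TPM in 10m NMJ. Of 16 other components of basement membranes, 15 were tested, of which 10 were called higher at 10 months and 6 at 30 months, with 0 lower, and their median log2 fold change was 1.58 and 1.43. Among all tested genes 6.50% and 5.0% were called higher. The 30-month count depended on the fit, with 10 called by DESeq2 and by limma-trend on log2 CPM, 11 with library totals and 14 by limma-trend on log2(TPM + 1). The background rose as well. Of the 13990 genes, 700 were called higher at 30 months in the main fit, 942 by DESeq2 and 1120 by limma-trend on log2 CPM. Library totals gave 2687 and limma-trend on log2(TPM + 1) gave 3501. Colq, the collagen tail that anchors acetylcholinesterase, had log2 fold changes of 6.20 ± 0.82 (SE) and 5.66 ± 0.79 at 10 and 30 months (edgeR adjusted p = 1.70e-06 and 6.64e-06). Col13a1, a transmembrane collagen of the junction, had 5.39 ± 0.96 and 4.14 ± 0.87 (edgeR adjusted p = 0.000163 and 0.00149). Col4a5, a collagen IV chain known from the synaptic lamina, was at 0 in all 8 10m xNMJ libraries and at 0 to 177 counts in 10m NMJ (edgeR adjusted p = 0.00723). At 30 months its groups overlapped, with up to 2.07 TPM in xNMJ and 4.75 TPM in NMJ, and it was not called (1.26 ± 1.3, edgeR adjusted p = 0.649). Col4a3, another synaptic chain, was called at 10 months (2.84 ± 0.75, edgeR adjusted p = 0.00946) and had 2.14 ± 0.72 at 30 months (adjusted p = 0.0557). At 30 months Col15a1 and Col18a1, the proteoglycan collagens, had log2 fold changes of 3.88 ± 0.70 and 3.13 ± 0.47 (edgeR adjusted p = 0.000253 and 1.96e-05). Both were called at 10 months too, at 2.73 ± 0.65 and 1.69 ± 0.44 (edgeR adjusted p = 0.00363 and 0.00777). Agrn, the organizer of the junction, was not called at either age (1.28 ± 0.82 and 1.43 ± 0.83, edgeR adjusted p = 0.375 and 0.349).

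Of 11 laminin receptors, 10 were tested, of which 5 were called higher at 10 months and 4 at 30 months, with 0 lower. The background was again 6.50% and 5.0% of tested genes called higher and 5.05% and 4.25% called lower. The syndecan Sdc4 had log2 fold changes of 2.40 ± 0.34 (SE) and 1.79 ± 0.33 at 10 and 30 months (edgeR adjusted p = 5.60e-06 and 0.000392), and Sdc2 had 3.21 ± 0.55 and 2.04 ± 0.53 (edgeR adjusted p = 0.000103 and 0.00911). Sdc3 was called at 10 months (1.62 ± 0.38, edgeR adjusted p = 0.00306). Itga7, the integrin α chain that pairs with β1 on fibers, was called at 10 months (1.58 ± 0.46, edgeR adjusted p = 0.0190) and had 0.75 ± 0.45 at 30 months (adjusted p = 0.370). Dag1, which encodes dystroglycan, had 0.51 ± 0.15 at 10 months and 0.72 ± 0.15 at 30 months (edgeR adjusted p = 0.0219 and 0.00147), and Itgb1 was called at 30 months (0.77 ± 0.23, adjusted p = 0.0310). Of 13 enzymes that build the laminin-binding glycan of dystroglycan, 12 were tested and 0 were called by edgeR at either age, with median log2 fold changes of -0.012 and -0.092; 1 of the 12 had an unadjusted p under 0.05 at 10 months and 0 at 30 months. DESeq2 also called 0 at both ages, while limma-trend on log2(TPM + 1) called 2 at each age, which at 30 months were B3galnt2 and Pomt2, and edgeR with library totals called B3galnt2 at 30 months. Among all 13990 tested genes that limma-trend fit called 2681 and 3501 higher at 10 and 30 months and 237 and 60 lower. Library totals called 2687 higher and 76 lower at 30 months. No gene of these 4 lists was called between the ages in either region.

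**Figure D4:**
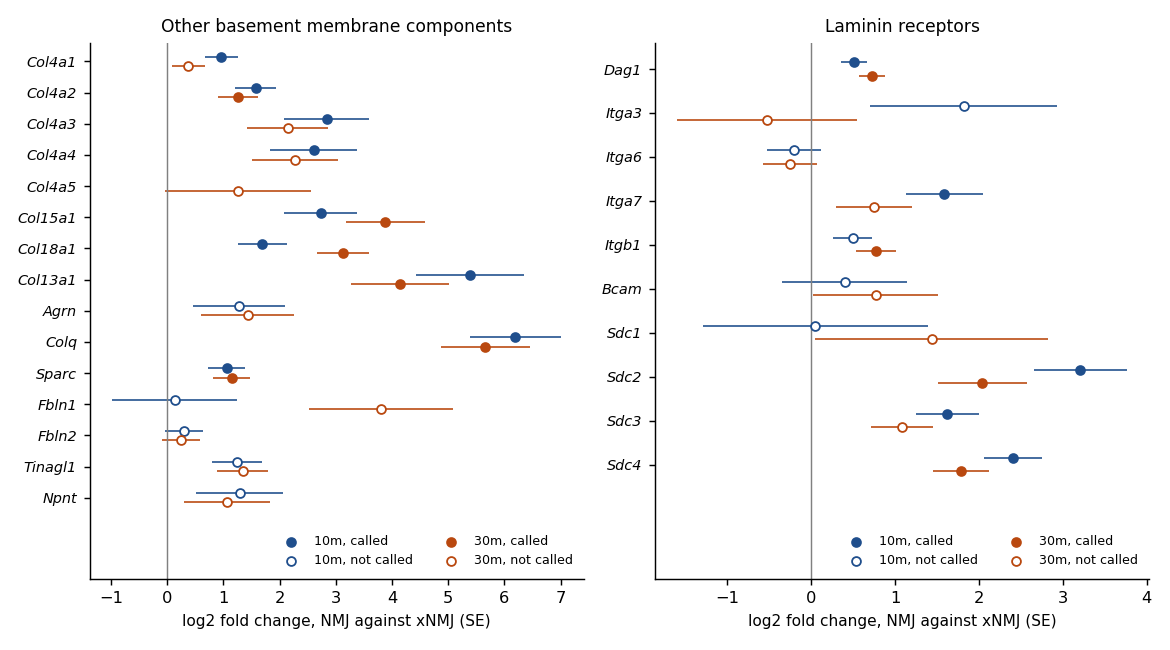
Log2 fold change with its standard error (horizontal bars) of the tested genes of 2 lists (other basement membrane components and laminin receptors), NMJ against xNMJ at 10 and 30 months, with filled points for an adjusted p under 0.05; Col4a5 at 10 months is left out because it was at 0 in all 8 10m xNMJ libraries. All points of the basement membrane components and of the syndecans lie to the right of 0, while Itga6, not called, lies to the left of 0 at both ages.

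Markers of other cells moved with region too, in the same libraries as the members. Among all tested genes 6.50% and 5.0% were called higher in NMJ regions at 10 and 30 months and 5.05% and 4.25% lower. All 6 subsynaptic genes were called higher in NMJ regions at both ages. Etv5 was also called higher at 30 months in xNMJ (4.61 ± 0.87, edgeR adjusted p = 0.0309). Replicate 5 was there at 25.1 TPM, and the other 7 reached at most 3.31 TPM. Muscle fiber genes were abundant in every group (summed medians from 78004 to 93729 TPM), and 3 of 5 were called lower in NMJ regions at 10 months and 4 of 5 at 30 months. The 5 Schwann cell genes were all called higher at both ages, with a summed median of 3.39 TPM in 10m xNMJ and 123 TPM in 10m NMJ. Of 5 fibroblast genes 4 were called higher at 10 months and 3 at 30 months, and their sum, led by Dcn, went from a median of 66.1 TPM in xNMJ to 787 TPM in NMJ regions at 10 months and from 89.0 to 755 TPM at 30 months. All 4 mast cell genes were called higher at both ages, with a summed median of 0 TPM in both xNMJ groups, 36.3 TPM in 10m NMJ and 60.6 TPM in 30m NMJ, and Cma1 was the most abundant in NMJ. Cpa3, Cma1 and Tpsb2 were at 0 in all 30m xNMJ libraries. Of 4 macrophage genes 2 were called higher at each age, with summed medians of 2.89 and 34.1 TPM in 10m xNMJ and NMJ and of 2.23 and 28.0 TPM in 30m xNMJ and NMJ. The 5 endothelial genes did not follow: 0 were called higher and 1, Cdh5, was lower at 30 months (-1.29 ± 0.34, edgeR adjusted p = 0.00933), and their sum had medians of 24.1 and 24.7 TPM in 10m xNMJ and NMJ and of 25 and 20 TPM in 30m xNMJ and NMJ. Of 5 pericyte and smooth muscle genes, Cspg4 was called higher at both ages and Rgs5 lower at 30 months, and the sum had medians of 39.2 and 53.1 TPM in 10m xNMJ and NMJ. Laminin chains are made by muscle fibers, Schwann cells, fibroblasts and vessel cells alike, and the part of these cells in the levels of the members was not tested.

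**Figure D5:**
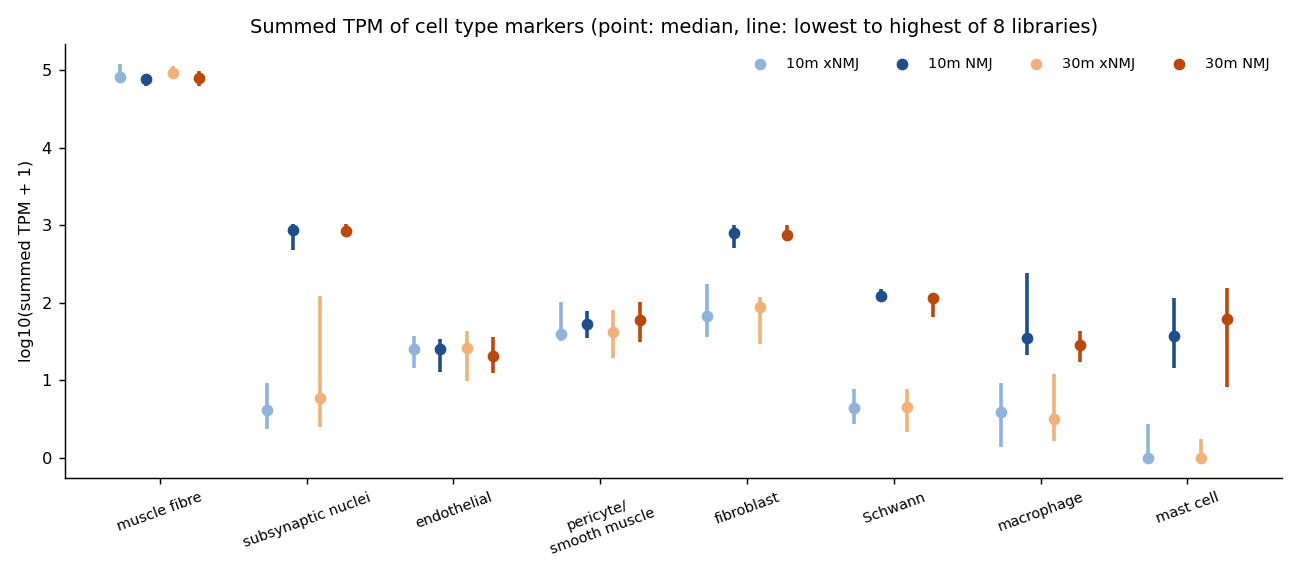
Summed TPM of 8 lists of cell type markers by group, on a log10(TPM + 1) scale, with a point at the median and a line from the lowest to the highest of 8 libraries. Subsynaptic, fibroblast, Schwann, macrophage and mast cell markers are higher in NMJ groups, while endothelial and pericyte markers overlap between regions, and the long line of the subsynaptic genes in 30m xNMJ is replicate 5.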

How the data were processed

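The 32 libraries of captured muscle regions were grouped by their labels. Per the study's methods, the authors trimmed single-end reads with Cutadapt 1.9.1 (version in the submitters' processing notes) and assigned them with kallisto 0.43.1 to protein-coding transcripts of GRCm38. A read on several transcripts was divided among them, and transcripts were summed per gene. The deposited counts are whole numbers without normalization by the authors, and the deposited TPM were scaled by the authors for transcript length and depth. Each table held 24952 genes, and 0 columns lacked a sample.

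Counts were tested with edgeR 4.0.16 in R 4.3.3 (TMM factors, quasi-likelihood fit of the 4 groups together, at least 1 CPM in at least 8 libraries, Benjamini-Hochberg adjustment over all genes, threshold 0.05). The SE is the log2 fold change divided by the root of its F statistic, and 95% intervals are from the normal distribution. The count of 3 was used as a floor, between 0.182 and 0.745 CPM by library. CPM in the filter and the floor were on library totals, and CPM printed as levels, with log2 CPM and CPM per kb, were divided by the TMM factors too. Reads carry no molecular identifiers, so counts and this floor cover counting error only. To look for a library deposited more than once, counts were compared over 112 pairs of libraries of 1 group, and the chi-squared per gene was at least 17.0. As the labels name no animals, p values measure the spread between libraries. The members and gene lists were chosen with earlier results of these data known. All 10 members were named, and of each list the called genes with the largest changes (at most 4 a comparison, mean of at least 1 CPM). Lamb3, Agrn, Itga6, Pomt2, B3galnt2 and, at 10 months, Dag1, Col15a1 and Col18a1 were named after their values were seen. So were Col4a3, Col4a5 and Itga7 where they did not pass at one of the ages. Some genes of the lists are not reported here by name. The alternatives tried were the Wald test of DESeq2 1.42.0, size factors of DESeq2 used in edgeR, limma-trend 3.58.1 on log2(TPM + 1), no filter, insert size as a covariate, only the compared groups, a replicate block and leaving out each library. Limma-trend on log2 CPM (prior count of 2), library totals, ratios of CPM and CPM per kb were added after seeing the data. Positions and lengths came from GENCODE M21 and promoters from RefSeq, both on GRCm38. On simulated counts of 13990 genes at the design of NMJ against xNMJ at 10 months, edgeR found 51% of genes changed 4-fold and 91% of those changed 16-fold, and called 4 unchanged genes. The 200 changed genes were all raised in NMJ, and no difference in scale between regions like that of the TMM factors was simulated. These values therefore do not cover the effect of scaling.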

Additional observations from a re-analysis of the deposited data

Results flagged for a closer look

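Of 32 groups of values checked (8 tested members in 4 groups of 8 libraries), 4 held a library far from the others in log2 CPM, by Dixon's criterion at 95%, which chance meets in about 1 group in 20. All 4 were low values in xNMJ libraries. Lama2 was at 0.22 in 10m xNMJ replicate 3, where the nearest library was at 2.16, and at -0.11 in 30m xNMJ replicate 2, where the nearest was at 2.59. Lama5 was at 1.16 in 10m xNMJ replicate 2, with the nearest library at 3.27. Lamb2 was at 3.86 in 10m xNMJ replicate 1, with the nearest at 5.67.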

How the results depend on the processing

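The direction of NMJ against xNMJ was the same for all 8 tested members under each alternative, and Lama2, Lamb2 and Lamc1 were called under every one at both ages. The number called was 4 at each age. It was 6 and 5 with DESeq2, 6 and 3 with only the compared groups, 3 and 4 with insert size as a covariate, 4 and 5 without a filter (Lamc3 included), 4 and 4 with DESeq2 size factors, 7 and 8 with limma-trend on log2(TPM + 1), 5 and 7 with limma-trend on log2 CPM and 6 and 7 with library totals, both of these added after seeing the data. The background moved as well. Of all tested genes, 909 and 700 were called higher in the main fit. DESeq2 called 1228 and 942 higher, and its size factors in edgeR gave 954 and 700. Limma-trend gave 2681 and 3501 on log2(TPM + 1) and 1267 and 1120 on log2 CPM, and library totals gave 2659 and 2687. No such background is given here for only the compared groups, insert size, no filter or the replicate block. Whether the calls under these 4 settings moved more for the members than for all genes is thus not shown. Leaving out 1 library gave 4 to 5 called members at 10 months and 3 to 5 at 30 months. No member was called with age or for the interaction under any alternative. Replicate numbers are shared between regions, and nothing in the labels says that they pair libraries. The mean r of deviations was 0.0893 at 10 months and 0.0807 at 30 months for the same number (over 0.1 in 4 and 1 of 8 pairs) against -0.013 and -0.011 for other numbers, and 4 of 8 NMJ libraries at each age correlated best with their own number, a hint of pairing from the data and not from the design. With a replicate block 5 and 6 members were called. The block added Lama4 at 10 months (log2 fold change 2.16, edgeR adjusted p = 0.0484). At 30 months it added Lama4 (2.35, edgeR adjusted p = 0.0465) and Lamb1 (3.14, edgeR adjusted p = 0.00617). The block gave 3 calls in place of 5 among laminin receptors at 10 months, and 10 in place of 6 among other basement membrane components at 30 months. Under the block the smallest exact p of 8 pairs is 0.0078, so that adjustment over 16 tests left little room to pass the threshold, and the ratios were over it: Lama5 to Lama2 at -2.80 (10 months, exact permutation adjusted p = 0.062) and -1.80 (30 months, 0.062), and Nid2 to Nid1 at 30 months at -1.17 (0.070); the Lama4 interaction turned to 0.19. Of the causes of these changes none was tested.

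With a pseudocount of 0.1 TPM the ratio differences were 0.90 for Nid2 to Nid1 at 10 months, 0.11 for Lama4 to Lama2 at 30 months, -1.60 for Lama5 to Lama2 at 30 months, -0.99 for Nid2 to Nid1 at 30 months and, now past the threshold, 2.06 for Nid2 to Nid1 between ages in xNMJ. With log2 CPM the first was 1.51, and the 30-month values of Lama5 to Lama2 and Nid2 to Nid1 were -1.11 and -0.54; between ages, Lamb2 to Lamb1 in NMJ was -0.0095, Lama4 to Lama2 in NMJ 0.15 and Nid2 to Nid1 in xNMJ 2.24. With raw CPM, added later, the values were 0.38, -1.14, -0.93, -0.010 and 0.15 in the same order without the last. With limma-trend on log2(TPM + 1) the age difference in NMJ turned to 0.12 for Lamb1 and 0.14 for Lamb2, that of Lama4 in xNMJ to -0.55 (-0.48 on log2 CPM), and the interaction to 0.26 for Lama4 (0.35 on log2 CPM) and 0.085 for Lamb2. Leaving out 1 library gave ranges that crossed 0 for the age difference in NMJ of Lama4 (-0.18 to 0.030) and Lamb1 (-0.16 to 0.010), that of Lama4 in xNMJ (-0.79 to 0.78) and its interaction (-0.87 to 0.69), the last pair turning without 30m xNMJ replicate 1. For ratios, such ranges were -0.13 to 0.11 (Lamb2 to Lamb1), -0.38 to 0.19 (Lama4 to Lama2) and -0.17 to 0.24 (Nid2 to Nid1) between ages in NMJ, and -0.39 to 0.017 (Lamb2 to Lamb1) and -0.48 to 0.084 (Lama4 to Lama2) for region at 30 months. Nid2 to Nid1 ranged from 0.74 to 1.05 between ages in xNMJ, past the threshold without 10m xNMJ replicate 3 or 30m xNMJ replicate 6, and from -1.29 to -0.99 for region at 30 months, lost without 30m NMJ replicate 3 or 8 (adjusted p = 0.051). Depth limits the low members most: 3 counts correspond to 0.182 to 0.745 CPM, and Nid2, Lamc3 and Hspg2 lie near that in many libraries.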
